A study of Mus musculus with 18 samples.

Results

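The genes described here are 9 genes of the translation machinery and of small nucleolar RNA (snoRNA) hosting, measured by RNA sequencing of mouse hearts: the elongation factor genes Eef1a1, Eef1a2, Eef1b2, Eef1g and Eef2, the growth-related genes Tpt1 and Npm1, and the noncoding snoRNA host genes Gas5 and Snhg8. They were taken by symbol after Snhg8 had been seen to be lower, together with ribosomal protein genes, in hearts given plastic particles, so their differences from the control group are given as a description, without p-values. All 9 of 9 were found among the 35560 genes that both deposited tables hold, and all 9 passed the filter on low counts. Each of the 18 libraries came from heart tissue of male wild-type C57BL/6 mice, whose age the labels do not give. All mice received isoproterenol (ISO), a beta-adrenergic agonist that stresses and injures the heart, under the skin at 2.5 mg/kg/day for 21 days. The ISO+100 nm PS group had polystyrene (PS) particles of 100 nm by gavage at 50 mg/kg/day over the same 21 days, the ISO+1 µm PS group had particles of 1 µm at the same dose, and the ISO group had water by gavage, with 6 libraries in each group. No library came from a heart without ISO, so none of these levels can be set against an unstressed heart.

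Elongation factor eEF1A brings each aminoacyl-tRNA to the ribosome, the eEF1B complex recharges it with GTP, and eEF2 moves the ribosome on along the mRNA. In muscle and neurons of adult mammals eEF1A2 takes over much of the work of eEF1A1. The mRNAs of elongation factors and ribosomal proteins, and several snoRNA host transcripts, are known to begin with a C followed by a run of pyrimidines, the terminal oligopyrimidine (TOP) tract. Through this tract the mTORC1 kinase and the RNA-binding protein LARP1 set how much of these mRNAs is translated and how stable they are. snoRNAs, which guide the chemical modification of ribosomal RNA, are cut from introns, and the spliced exons of a noncoding host such as Gas5 are in part removed by nonsense-mediated decay.

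The sequence at the annotated start was read from RefSeq promoter windows of build GRCm38.p6 for 7 of the 9 members, since a TOP tract is the feature the group is named for. Each line below shows 30 bases, 5 before the annotated start and 25 from it on, on the strand of the gene, with capitals marking a C followed by at least 4 bases that are each C or T.
Eef1a1, chr9:78481700-78481729, minus strand: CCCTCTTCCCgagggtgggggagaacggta
Eef1a2, chr2:181156991-181157020, minus strand: tctgcgttctcgctcactggttCTCTCCCT
Eef2, chr10:81176626-81176655, plus strand: cgggcgttgacgtcagcggtCTCTTCCgcc
Snhg8, chr3:123508312-123508341, minus strand: gaagtCTCTTTggctgcgatccgcctacga
Gas5, second start, chr1:161035161-161035190, plus strand: tcagCCTTTCggagctgtgcggcattctga
Tpt1, chr14:75845251-75845280, plus strand: acgacagttccgggggagccgcggacggtg
Eef1b2, chr1:63176826-63176855, plus strand: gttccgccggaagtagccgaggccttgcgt
Such a stretch was present in the windows of 5 of the 8 annotated starts of these members. It was absent from the windows of Tpt1 and Eef1b2 and from the first start of Gas5. Only the strand of the gene was searched, and the same scan matched 34.6% of all 32851 annotated mouse starts, so a match within this window is common. Counting the annotated start as base 1, the stretch began at base 1 in Snhg8 and at bases 18 and 16 in Eef1a2 and Eef2. It began upstream of the start in Eef1a1 and the second start of Gas5, at -5 and -1. The -5 of Eef1a1 is the first base of the window, so its run may reach further upstream. Only in Snhg8 did the marked stretch begin at the annotated start as a TOP tract does. In the second start of Gas5, base 1 is itself a C followed by 4 such bases, so the rule is also met there. Where transcription begins in these hearts was not measured. A window without such a stretch at its start therefore does not show that the mRNA lacks a TOP tract. Eef1g and Npm1 are named without a sequence.

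The libraries held 14032257 to 22600570 counts each. RNA was processed by a pair of providers, batch 1 with 5 ISO+100 nm PS, 4 ISO+1 µm PS and 3 ISO libraries, and batch 2 with 1, 2 and 3. Against the labelled tissue, the myocyte genes Myh6 and Tnnt2 had at least 6067 and 1927 CPM in every library (CPM is the count scaled to the effective library size). A pair of ISO libraries stood apart from the other 16. Fewer genes were detected in ISO replicate 2 than elsewhere (13152, with 16562 to 18755 in each remaining library), and mitochondrial rRNA made up 4.76% of it. In ISO replicate 1, mitochondrial mRNA made up 42.4%. The labels give no sign that libraries share an animal, but they do not state that each is a separate mouse, so p-values measure the spread between these libraries.

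The members together made up a small and uneven share of each library, 0.614% to 0.747% of all counts in ISO+100 nm PS, 0.641% to 0.733% in ISO+1 µm PS and 0.424% to 0.986% in ISO. ISO replicates 1 and 2 were the lowest and the highest of all 18 libraries. On a per-length scale (TPM, from the deposited counts and 1 transcript length per gene), the medians over 18 libraries put Tpt1 first at 2101 TPM and Eef1a1 second at 1598 TPM. Eef2 followed at 958 TPM and Eef1a2 at 912 TPM, and Eef2 exceeded Eef1a2 in 12 of 18 libraries, so this pair was not cleanly ordered. Tpt1 exceeded Eef1a1 in 15 libraries and Eef1a1 exceeded Eef2 in 17. The eEF1B subunit genes lay lower, Eef1g at 257 TPM and Eef1b2 at 132 TPM, and Npm1 was at 92.7 TPM. The noncoding hosts had the lowest levels, Gas5 with 14.6 TPM and Snhg8 with 11.3 TPM, Gas5 being the higher in 16 of 18 libraries. Its level is the least certain, since its length of 2556 bases is that of a long unspliced form.

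**Figure D1:**
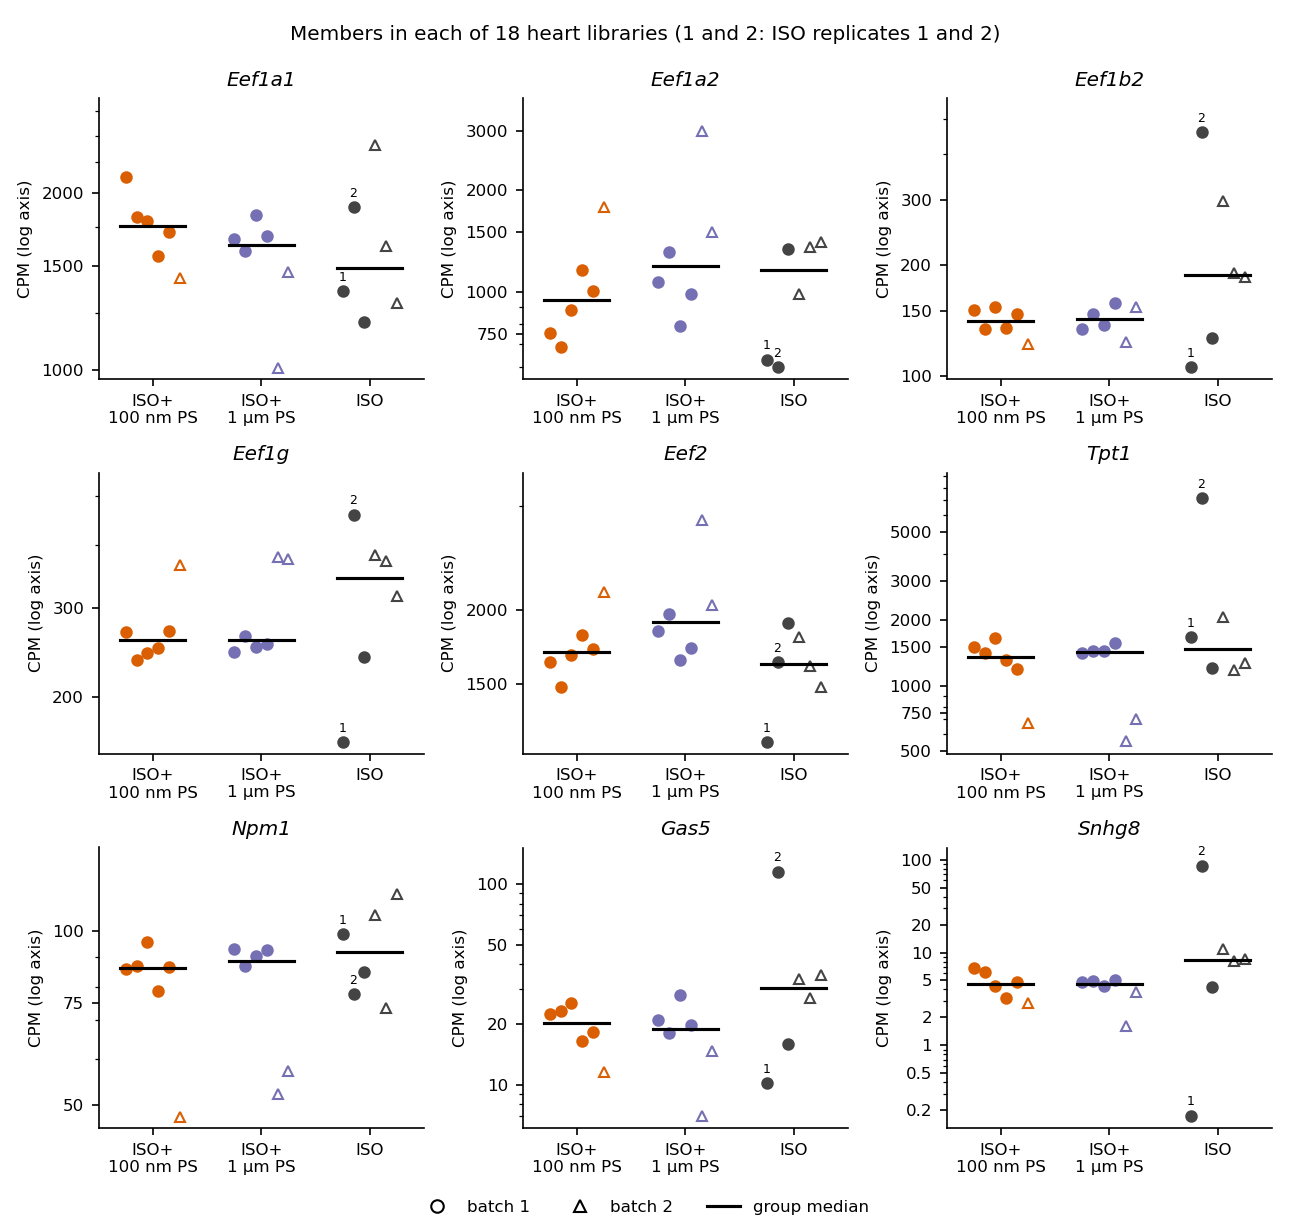
CPM of each member in every library on a log axis, with ISO+100 nm PS and ISO+1 µm PS left of ISO, circles for batch 1, open triangles for batch 2 and a bar at the group median; the digits mark ISO replicates 1 and 2. For Tpt1, Gas5 and Snhg8 the ISO replicate marked 2 lies far above the rest (7150, 115 and 86.2 CPM), and for Tpt1 and Gas5 the PS libraries of batch 2 lie below those of batch 1.

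The paralogs that encode eEF1A had different patterns over the libraries. Eef1a1, the form of most tissues, had 1433, 1753 and 2124 CPM (lowest, median and highest) in ISO+100 nm PS, 1007, 1631 and 1832 CPM in ISO+1 µm PS, and 1204, 1491 and 2408 CPM in ISO. The 3 groups overlapped almost entirely, and the log2 fold change was 0.04 (SE 0.21) for 100 nm PS against ISO and -0.12 (SE 0.20) for 1 µm PS against ISO. Eef1a2, the muscle form, had 687, 943 and 1778 CPM in ISO+100 nm PS, 789, 1189.5 and 3003 CPM in ISO+1 µm PS, and 598, 1159 and 1404 CPM in ISO. Its fold changes against ISO were 0.24 (SE 0.25) at 100 nm and 0.52 (SE 0.24) at 1 µm. After correction for GC content they were -0.21 and 0.08, so the sign at 100 nm turned with that setting. All 3 PS libraries of batch 2 had more Eef1a2 (1778, 3003 and 1502 CPM) than any ISO library. The highest, ISO+1 µm PS replicate 5, also had the lowest Eef1a1 of all libraries and the highest summed level of 8 myocyte marker genes, 109781 CPM against 33620 to 88107 CPM in the other 17 libraries. Whether the makeup of the tissue sample had a part in this was not tested. In bulk tissue, fewer cells of a type and less RNA per cell cannot be told apart.

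Per transcript length, Eef1a1 exceeded Eef1a2 in most libraries. The ratio ran from 0.936 to 3.28 with a median of 2.17 in ISO+100 nm PS, from 0.390 to 2.70 with a median of 1.61 in ISO+1 µm PS, and from 1.05 to 3.67 with a median of 1.95 in ISO. It was below 1 in ISO+100 nm PS replicate 6 and ISO+1 µm PS replicate 5, both of batch 2. Between the particle sizes, a comparison that the choice of members did not use, the log2 ratio minus the batch mean averaged -0.35 with 1 µm PS and 0.08 with 100 nm PS. The difference of -0.42 gave p = 0.2121 in a two-sided exact permutation test over 12 libraries, and in batch 1 alone it was -0.30 (exact permutation p = 0.3333). The batch mean includes the ISO libraries. With PS libraries only and arrangements kept within batches, the difference was -0.34 (exact permutation p = 0.3122). Without ISO+1 µm PS replicate 5 it was -0.20. The difference was within the spread of the libraries in each.

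**Figure D2:**
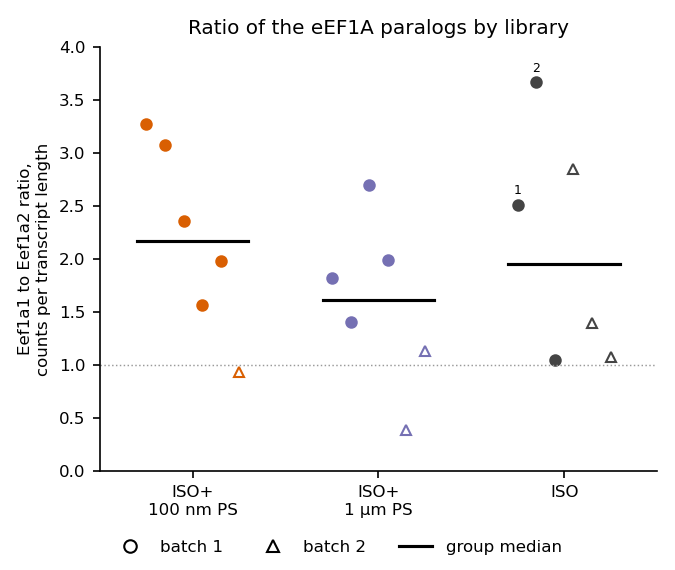
Ratio of Eef1a1 to Eef1a2 counts per transcript length in each library (linear axis from 0, dotted line at equal levels), with the PS groups left of ISO, open triangles for batch 2 and bars at the group medians. The medians are 2.17 (ISO+100 nm PS), 1.61 (ISO+1 µm PS) and 1.95 (ISO), and a pair of PS libraries of batch 2 lies below 1.

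Of the genes for eEF1B subunits, Eef1b2 was lower and Eef1g was near its ISO level in both PS groups. Eef1b2, the nucleotide exchange subunit, had 123, 141 and 154 CPM in ISO+100 nm PS, 123, 143 and 158 CPM in ISO+1 µm PS, and 106, 188 and 459 CPM in ISO. The PS libraries spanned a factor of 1.29 in all, and all of them lay inside the ISO range, between ISO replicate 1 at 106 CPM and ISO replicate 2 at 459 CPM. Its log2 fold change against ISO was -0.72 (SE 0.28) at 100 nm and -0.69 (SE 0.27) at 1 µm. Without ISO replicate 2 the values were -0.22 and -0.25. Eef1g, the structural subunit of the complex, had 237, 259 and 366 CPM in ISO+100 nm PS, 246, 259 and 379 CPM in ISO+1 µm PS, and 163, 344 and 459 CPM in ISO, with fold changes of -0.10 (SE 0.19) and -0.07 (SE 0.19). The difference between batches was wider than that between groups, since the 3 PS libraries of batch 2 had 366, 379 and 375 CPM and the 9 of batch 1 had at most 271 CPM. Without ISO replicate 2 its fold changes turned to 0.20 and 0.19.

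Eef2, whose product drives translocation, was a little above its ISO level in both PS groups before correction for GC content. It had 1479.9, 1697 and 2145 CPM in ISO+100 nm PS, 1648, 1905 and 2839 CPM in ISO+1 µm PS, and 1193, 1618 and 1901 CPM in ISO. The log2 fold changes against ISO were 0.20 (SE 0.17) and 0.35 (SE 0.16), or -0.13 and 0.02 after correction for GC content. Eef2 and Eef1a2 have the highest GC content of the members, 57.0% and 60.6% of the longest transcript.

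Tpt1 had the widest gap between 1 ISO library and the rest among the coding members. It encodes the translationally controlled tumour protein, an abundant growth-related protein. It had 674, 1353 and 1644 CPM in ISO+100 nm PS, 556, 1420.25 and 1559.8 CPM in ISO+1 µm PS, and 1175, 1462 and 7150 CPM in ISO. The group medians differed little, and the value of 7150 CPM belonged to ISO replicate 2. The other 5 ISO libraries had 1175 to 2055 CPM. The log2 fold change was -1.23 (SE 0.33) at 100 nm and -1.21 (SE 0.32) at 1 µm with all libraries, and -0.61 and -0.64 without ISO replicate 2. Without ISO replicates 1 and 2 it was -0.74 and -0.77. In batch 2 the PS libraries had 674, 556 and 706 CPM against 2055, 1175 and 1263 CPM in the ISO libraries, without overlap. In that batch a pseudogene copy, Tpt1-ps3, was listed with 14.4% to 29.4% as many counts as Tpt1 itself, so reads may be split between them. With such copies added to the gene the fold change was -1.20 at both sizes.

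Npm1, which encodes nucleophosmin, a chaperone of ribosome assembly in the nucleolus, had 47.7, 86.2 and 95.6 CPM in ISO+100 nm PS, 52.2, 88.6 and 92.8 CPM in ISO+1 µm PS, and 73.6, 91.7 and 116 CPM in ISO. ISO replicates 1 and 2, with 98.4 and 77.6 CPM, lay within the range of the other 4 ISO libraries. Its fold changes were -0.38 (SE 0.19) and -0.35 (SE 0.18) over all libraries, or -0.05 and -0.01 after correction for GC content. In batch 2 alone, without that correction, they were -1.04 (SE 0.37) and -0.87 (SE 0.28). In batch 1 alone they were -0.01 (SE 0.14) and 0.06 (SE 0.15). In batch 2 the PS libraries had 47.7, 52.2 and 57.2 CPM and the ISO libraries 73.6, 106 and 116 CPM. The edgeR quasi-likelihood test of the batch-by-group term gave an unadjusted p of 0.002994 and an adjusted p = 0.2031 for Npm1, which did not pass. The same test called 0.0821% of all genes and 0 of the 9 members.

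The snoRNA hosts had the largest differences between the libraries. Gas5, a noncoding transcript that builds up when growth stops, had 11.6, 20.4 and 25.5 CPM in ISO+100 nm PS, 6.99, 19.0 and 27.9 CPM in ISO+1 µm PS, and 10.2, 30.6 and 115 CPM in ISO. ISO replicates 1 and 2 were the lowest and the highest of their group, an 11.3-fold distance, and all but 1 of the PS libraries lay between them. The log2 fold changes were -1.29 (SE 0.43) and -1.31 (SE 0.41), or -0.45 and -0.54 without ISO replicate 2 and -0.91 and -0.97 without ISO replicates 1 and 2. Snhg8 had 2.88, 4.60 and 6.75 CPM in ISO+100 nm PS, 1.61, 4.58 and 5.07 CPM in ISO+1 µm PS, and 0.175, 8.32 and 86.2 CPM in ISO. All PS libraries fell between the 2 counts of ISO replicate 1 and the 1116 counts of ISO replicate 2. Its fold changes were -2.27 (SE 0.71) and -2.30 (SE 0.70) with all libraries, -0.35 and -0.57 without ISO replicate 2, and -1.03 and -1.19 without ISO replicates 1 and 2. In batch 2, where neither of those libraries is, Snhg8 had 2.88, 1.61 and 3.79 CPM in PS hearts and 11.03, 8.17 and 8.46 CPM in ISO hearts, and Gas5 had 11.6, 6.99 and 14.7 CPM in PS hearts and 33.9, 27.2 and 35.4 CPM in ISO hearts. The snoRNAs within the hosts cannot be read from these poly(A) libraries. Over the 12 libraries of batch 1, Snord47 within Gas5 had 11 counts in all and Snora24 within Snhg8 had 0, and in batch 2 both had 0. Other small RNAs within Gas5 were not analysed in batch 1.

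As a list, 6 of the 9 members had a negative log2 fold change at 100 nm and 7 of 9 at 1 µm, with medians of -0.38 and -0.35. The medians over all 14623 genes tested were -0.02 and 0.00 on the same scale, each gene being counted as called at an edgeR adjusted p under 0.05. At 100 nm, 2 members were called lower (Tpt1 and Snhg8) and 0 higher, where 9.57% of all genes were called, 5.69% lower and 3.88% higher. At 1 µm, 1 member was called lower (Tpt1) and 0 higher, where 7.39% of all genes were called, 4.5% lower and 2.89% higher. Since the members were chosen on this contrast, and both sizes share the ISO libraries, these counts are given as a description. The Tpt1 call ended without ISO replicate 2 (-0.61 and -0.64) or ISO replicate 4 (-1.13 and -1.10), and without any 1 library of the PS group compared (-1.27 to -1.18 at 100 nm and -1.24 to -1.15 at 1 µm). The Snhg8 call at 100 nm held only without ISO replicate 1, 3 or 5. After correction for GC content 0 members and 0 genes were called, with 2954 genes at an unadjusted p under 0.05 at 100 nm and 2349 at 1 µm. The values of Tpt1 (-1.29 at both sizes), Gas5 (-1.10 and -1.09) and Snhg8 (-2.19 and -2.21) stayed close to those before correction. Those of Npm1 did not, with -0.38 and -0.35 before correction and -0.05 and -0.01 after it. The Spearman correlation across genes of each library's deviation with GC content was 0.12 to 0.37 in PS libraries and -0.61 to 0.01 in ISO libraries.

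**Figure D3:**
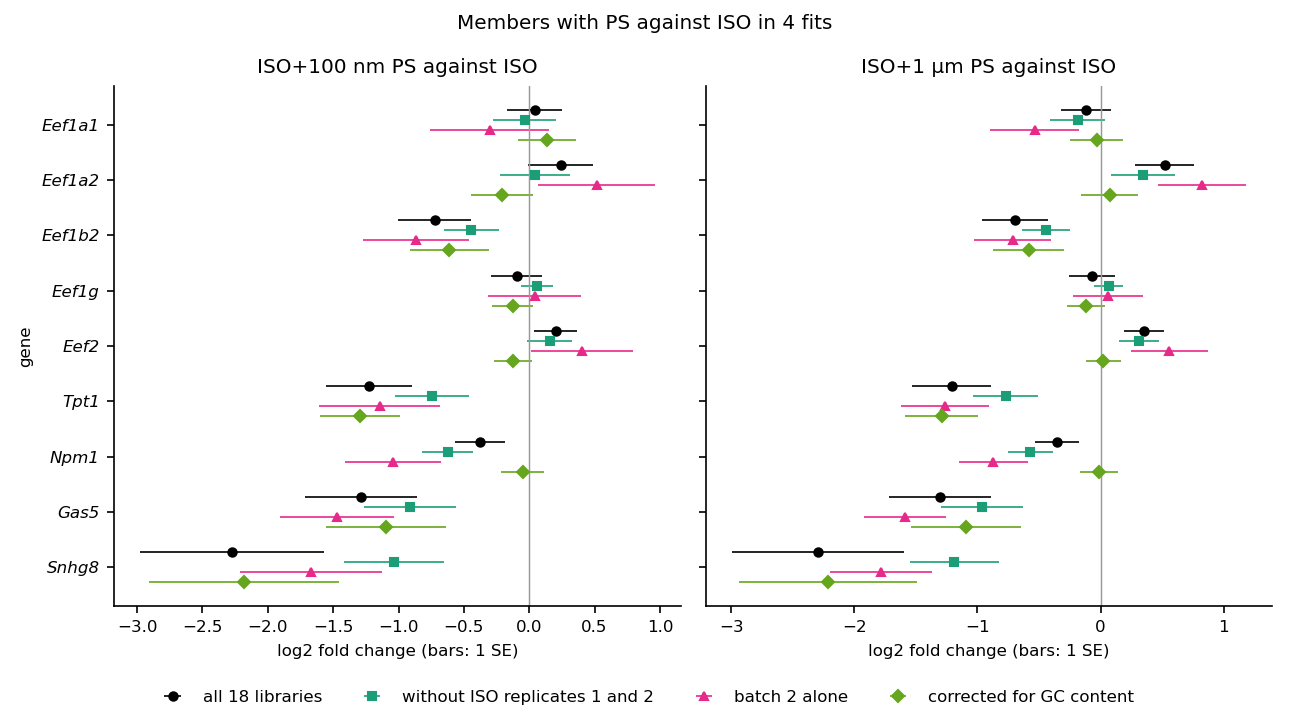
Log2 fold change of each member against ISO (bars of 1 SE), at 100 nm in the left panel and 1 µm in the right panel, from all 18 libraries, without ISO replicates 1 and 2, from batch 2 alone and after correction for GC content. Snhg8 moves most between fits, with -2.27, -1.03, -1.67 and -2.19 at 100 nm in that order, and Eef1a2 turns from 0.24 to -0.21 at 100 nm with the correction for GC content.

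No member had separate CPM ranges over all libraries. For 0 of 9 members did the 100 nm PS and ISO groups fail to overlap (2.37% of all genes), and for 0 of 9 the 1 µm PS and ISO groups (1.55% of all genes). The batches differed in this respect. In batch 1, 9 PS and 3 ISO libraries overlapped for all 9 members, while 13.4% of all genes did not overlap, 7.74% with PS higher and 5.69% with PS lower. In batch 2, 3 PS libraries lay below 3 ISO libraries for 5 members (Eef1b2, Tpt1, Npm1, Gas5 and Snhg8) and above them for Eef1a2 and Eef2, leaving Eef1a1 and Eef1g overlapping. There 33.4% of all genes did not overlap, 16.7% with PS higher and 16.7% with PS lower. The same split in overlap was seen for 79 ribosomal protein genes. Of these, 66 were lower without overlap in batch 2 and 0 in batch 1. Overlap of 9 with 3 libraries and of 3 with 3 cannot be compared directly, and batch 1 holds ISO replicates 1 and 2. In batch 1 alone the log2 fold changes (100 nm, then 1 µm) were -0.66 and -0.66 for Eef1b2 and -1.23 and -1.18 for Tpt1. They were -1.14 and -1.10 for Gas5, -2.55 and -2.63 for Snhg8, and -0.01 and 0.06 for Npm1. The ribosomal protein medians there were -1.30 and -1.27. The genes shared by both tables held 93.1% to 95.8% of the counts of PS libraries and 85.2% to 87.4% of ISO libraries in batch 2, and the part of this difference in the result was not tested.

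**Figure D4:**
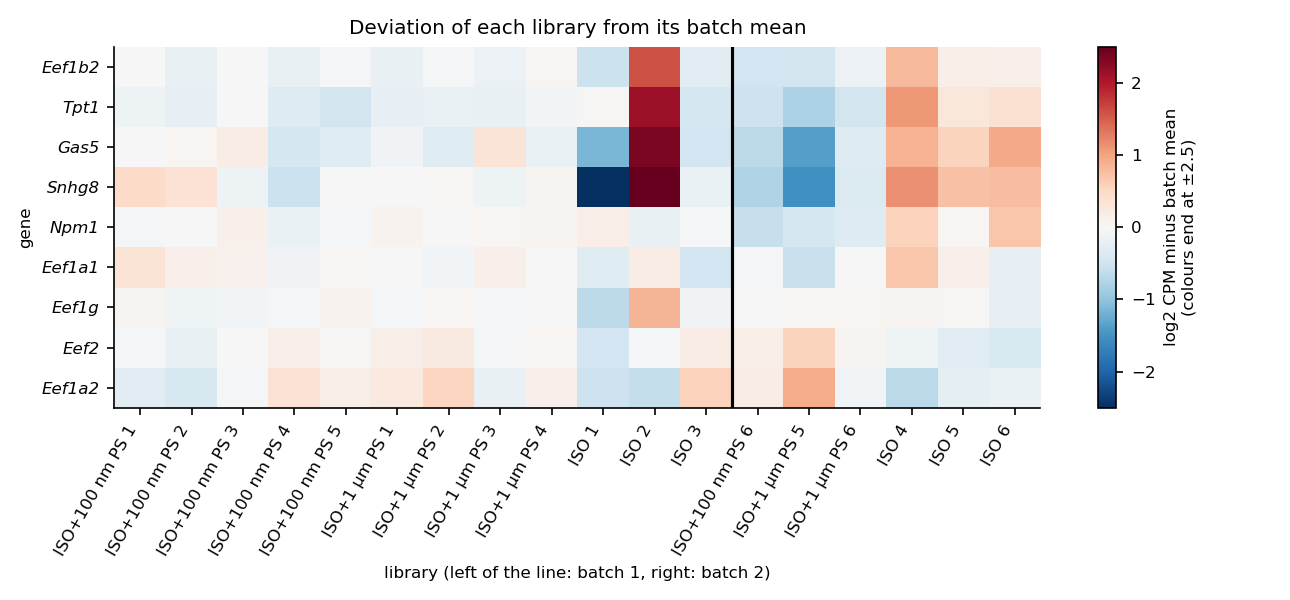
Log2 CPM minus the batch mean for each member (rows) and library (columns, PS groups left of ISO within each batch, a line between batches), red above and blue below the batch mean, with colours ending at 2.5. In batch 1 the ISO 2 column is red and the ISO 1 column blue for Gas5 and Snhg8 with the PS libraries near the mean, and in batch 2 the upper 5 rows are blue in PS and red in ISO.

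The particle sizes did not differ detectably in any member. For 1 µm PS against 100 nm PS, with no ISO library in the contrast, the log2 fold changes ran from -0.16 for Eef1a1 to 0.28 for Eef1a2, and Tpt1 was at 0.02, Gas5 at -0.02 and Snhg8 at -0.03. The edgeR quasi-likelihood test gave an adjusted p = 0.9999 for all 9. The precision differed by gene. The 95% interval of the difference was -0.19 to 0.49 for Eef2 and -0.34 to 0.39 for Npm1, but -0.64 to 0.68 for Tpt1, -0.87 to 0.83 for Gas5 and -1.46 to 1.41 for Snhg8. Differences within these intervals cannot be told from none at this precision. The spread behind the intervals was estimated over all 18 libraries, with the ISO libraries included. Without ISO replicates 1 and 2 the SE between the sizes fell from 0.69 to 0.28 for Snhg8. It fell from 0.40 to 0.25 for Gas5 and from 0.31 to 0.21 for Tpt1. Among all genes, edgeR called 0 (0%) with 49 at an unadjusted p under 0.05, and DESeq2 called 0 with 74. The groups failed to overlap for 0 members and for 0.0342% of all genes.

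The members split into sets by their course over the 18 libraries. Pearson correlations of log2 CPM minus the batch mean are given as a description, since the libraries share ISO replicates 1 and 2 and the batches. Eef1b2 and Tpt1 had r = 0.94 with all libraries and 0.94 without those ISO replicates, and Gas5 and Snhg8 had 0.89 and 0.91. Eef1a2 and Eef2 had 0.81 and 0.83, whereas Eef1a1 and Eef1a2 ran against each other with -0.69 and -0.86. Eef1g depended on the ISO replicates, with 0.86 to Snhg8 over all libraries and -0.17 without them. Npm1 moved the other way, with 0.14 to Snhg8 and 0.41 to Gas5 over all libraries. Without ISO replicates 1 and 2 these were 0.82 and 0.87. Eef2 and Snhg8 had 0.01 over all libraries and -0.84 without those replicates. Of all genes, those most like Tpt1 were Rpl26 and Rpl7 (r = 0.99 each) and Atp5mpl (0.98). Those most like Gas5 were Rps24, Ndufa6 and Uqcrb (0.97 to 0.98). Those most like Snhg8 were Rpl13, Rps10 and Ndufs6 (0.97 to 0.98, but 0.84 to 0.87 without ISO replicates 1 and 2). These neighbours encode ribosomal proteins or mitochondrial proteins of energy metabolism. Eef1b2 was most like Ufc1, Rps3 and Rps7 (0.98 each). The muscle form Eef1a2 had the muscle metabolic genes Pfkm (0.98) and Pygm (0.96) among its nearest, and Eef2 was most like Rnf19b, Llgl2 and Fxr2 (0.92 to 0.94). Eef1a1 was most like Sat1, Arpc1a and Fabp5 (0.87 to 0.88), Eef1g like Akr1a1, Nr1h3 and B3gat3 (0.96 each, but 0.58 to 0.72 without ISO replicates 1 and 2), and Npm1 like Rpp14, Cetn3 and Sptssa (0.90 to 0.94). Ribosomal protein genes, 0.54% of the genes tested, made up 25 of the 50 nearest genes of Eef1b2, 16 of Gas5, 15 of Tpt1 and 11 of Snhg8. For Snhg8 this restates how the members were chosen. Ribosomal protein genes made up 2 of the 50 for Eef1g, 1 for Eef1a1 and 0 for Eef1a2, Eef2 and Npm1. The nearest genes were ranked only with ISO replicates 1 and 2 included.

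Other parts of the translation machinery differed in how far they lay from ISO. In 12 other elongation and termination factors the median log2 fold change was -0.37 with 100 nm PS and -0.20 with 1 µm PS, and the same 3 genes passed at both sizes. The medians were -0.03 and 0.04 without ISO replicate 2. Etf1, the release factor that reads stop codons, fell by 0.81 (SE 0.18, edgeR adjusted p = 0.0171) at 100 nm and by 0.66 (SE 0.18, adjusted p = 0.0357) at 1 µm. Abce1, which splits ribosomes after termination, fell by 0.79 (SE 0.18) and 0.71 (SE 0.18). Eefsec, which delivers selenocysteine, rose by 0.77 (SE 0.17) and 0.69 (SE 0.17). These genes are named because they passed. Among all genes 9.57% were called at 100 nm and 7.39% at 1 µm. The most abundant of the list did not pass, Eif5a at 0.09 and 0.13 and Eef1d, a further eEF1B subunit, at -0.14 and -0.18.

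Initiation factors had medians of -0.34 at 100 nm and -0.31 at 1 µm, with 7 of 38 lower and 0 higher at each size. At 100 nm the 7 were Eif3m (-0.97, SE 0.16) and Eif3j1 (-0.97, SE 0.18), Eif3e (-0.68, SE 0.16), Eif2s2 (-0.87, SE 0.16), Eif2s1 (-0.56, SE 0.13), Eif2a (-0.54, SE 0.15) and Eif1ax (-0.75, SE 0.13), and the same 7 passed at 1 µm, Eif2a with an adjusted p of 0.05 after rounding from below. Without ISO replicate 2 the list had 13 lower at 100 nm and 11 at 1 µm, while its medians were -0.13 and -0.07. Calls rose among all genes too in that fit. At 100 nm 2081 of 14808 genes were called (742 higher), against 1399 of 14623 with all libraries. At 1 µm 1983 were called (715 higher), against 1081. The most abundant initiation genes, Eif4g2 (-0.73 and -0.56) and Eif1 (-0.66 and -0.58), did not pass. In 8 mitochondrial translation factors the release factor gene Mtrf1 was the 1 that fell, by 1.02 (SE 0.23) at 100 nm and 0.92 (SE 0.23) at 1 µm. The list's medians were -0.16 and -0.01, with Tufm at -0.19 and -0.05 and Gfm1 at -0.21 and 0.03.

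The other snoRNA hosts came nearest to the ribosomal protein genes. Of 19 listed, 14 were tested, with medians of -0.94 at 100 nm and -0.95 at 1 µm, and 1 passed, Snhg6, which fell by 1.70 (SE 0.44, edgeR adjusted p = 0.0266) and 1.58 (SE 0.43, adjusted p = 0.0366). Among all genes 5.69% were called lower at 100 nm and 4.5% at 1 µm. The list was chosen with earlier results of these data known, so these calls are a description. Zfas1, another noncoding host, was at -1.53 (SE 0.51) and -1.31 (SE 0.49), and Rack1, a ribosome-bound scaffold whose gene also hosts snoRNAs, was at -0.51 and -0.50. Neither passed. The 79 ribosomal protein genes had medians of -1.25 and -1.23, with 27 lower and 0 higher at each size. Without ISO replicate 2 the medians of the other hosts were -0.19 and -0.29 with 0 called, and those of the ribosomal protein genes -0.32 and -0.39 with 2 and 3 called. In batch 2 alone the medians were -1.01 and -1.25 for 16 other hosts and -1.12 and -1.18 for 78 ribosomal protein genes. In batch 1 alone they were -0.60 at both sizes for 13 other hosts and -1.30 and -1.27 for 78 ribosomal protein genes. In 15 other TOP genes outside the ribosome the medians were -0.30 and -0.26, and Eif3e was the 1 called. These were -0.08 and -0.06 without ISO replicate 2, with 3 called lower at each size. That fit called 2081 and 1983 of all 14808 genes (742 and 715 of them higher). Vim (0.61 and 0.45) did not pass.

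With all libraries, the genes that act on these RNAs had medians nearer 0 than the other snoRNA hosts. In 17 regulators of TOP mRNAs the medians were -0.03 at 100 nm and 0.11 at 1 µm, and the same 2 genes passed. When ISO replicate 2 was left out, 4 were lower at 100 nm and 5 at 1 µm. In that fit 2081 and 1983 of all 14808 genes were called (742 and 715 of them higher). Larp4, a La-related protein that binds poly(A) tails, fell by 1.03 (SE 0.20) and 0.90 (SE 0.19), and Cnbp, a zinc finger protein that binds TOP mRNAs, fell by 0.57 (SE 0.14) and 0.54 (SE 0.14). Tsc2, an upstream inhibitor of mTORC1, was at -0.02 and 0.25 and did not pass. In 14 nucleolar and snoRNP proteins the medians were -0.35 and -0.26, with 0 called at 100 nm and 1 at 1 µm, Snu13, which fell by 0.44 (SE 0.13). Leaving out ISO replicate 2 gave medians of -0.16 and 0.02, with 1 called lower at each size. The nucleolar genes Ncl (-0.30 and -0.26) and Ubtf (0.31 and 0.38) did not pass. In 13 genes of nonsense-mediated decay the medians were 0.09 and 0.16, or -0.04 and 0.10 without ISO replicate 2. Smg9 rose at both sizes (0.66, SE 0.19, and 0.71, SE 0.18) and the helicase gene Upf1 rose at 1 µm (0.66, SE 0.17), while Smg5 (0.38 and 0.49) and Smg1 (-0.05 and -0.11) did not pass. Between the sizes 0 genes of any of these lists were called. After correction for GC content 0 genes of any list were called against ISO, with medians of -0.59 and -0.72 for the other snoRNA hosts and -1.18 and -1.20 for the ribosomal protein genes.

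**Figure D5:**
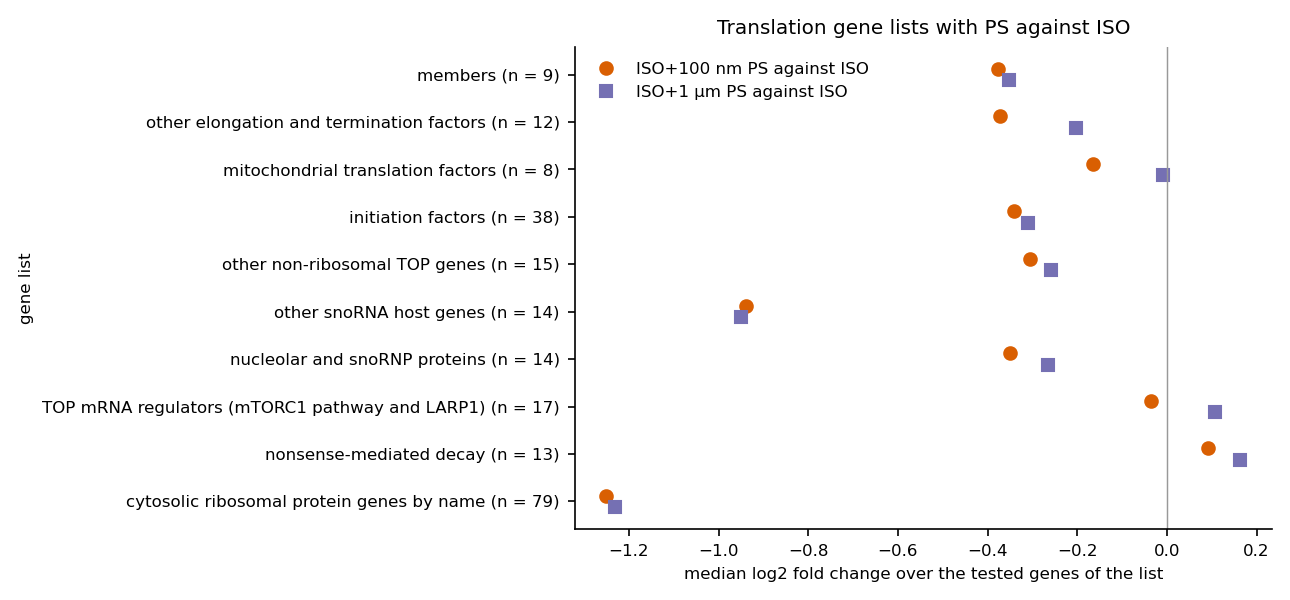
Median log2 fold change against ISO over the tested genes of each translation list (circles for 100 nm PS, squares for 1 µm PS; n is the number of genes tested). Ribosomal protein genes (-1.25 and -1.23) and other snoRNA hosts (-0.94 and -0.95) lie farthest below 0, and nonsense-mediated decay genes (0.09 and 0.16) lie above it.

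Markers of other cells moved with ISO replicate 2. Of 9 skeletal muscle genes that the heart should lack, 4 had enough counts to be tested, and their summed level was 2.62 to 5.02 CPM in ISO+100 nm PS, 1.59 to 4.79 CPM in ISO+1 µm PS and 2.10 to 98.4 CPM in ISO. The top value was ISO replicate 2, with 36.2 CPM of Tnnt3 and, among the genes too rare to be tested, 43.2 CPM of Myh4, while Mylpf and Myh1 were at 0 there. The summed level of 8 endothelial genes was 1911 to 2909 CPM in ISO+100 nm PS, 2014 to 2953 CPM in ISO+1 µm PS and 624 to 2179 CPM in ISO, the lowest again in ISO replicate 2, and 3 of the 8 rose at 100 nm and 1 at 1 µm. The 8 fibroblast genes summed to 1649.9 to 3793 CPM, 1515 to 3376 CPM and 898 to 2351 CPM in the same order of groups, with 3 of 8 higher at 100 nm and 0 at 1 µm. ISO replicate 2 had the highest summed level of 7 macrophage genes (619.9 CPM) and of the 2 adipocyte genes tested (2525 CPM), and the lowest of 4 neuron and Schwann cell genes (2.47 CPM). The adipocyte sum there came from Fabp4 alone, with Cfd, Adipoq and Plin1 at 0. Of the macrophage genes, Adgre1, C1qa and C1qb were at their highest of all libraries there, but Cd163 was at its lowest (8.34 CPM). The 5 red cell genes summed to 339.9 to 1547 CPM in ISO+100 nm PS, 244 to 1262 CPM in ISO+1 µm PS and 277 to 4017 CPM in ISO, and 0 were called. The 8 myocyte genes summed to 37429 to 81079 CPM in ISO+100 nm PS, 44043 to 109781 CPM in ISO+1 µm PS and 33620 to 88107 CPM in ISO. Of these 8 genes 1 was called lower at each size. Of the 4 skeletal muscle genes tested, 2 were called lower at 100 nm and 0 at 1 µm. The part of tissue makeup in the members' levels was not tested. The fold changes of the members without that library are given with each gene.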

How the data were processed

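The authors deposited counts of batch 1 as whole numbers per gene under Entrez numbers (46548 entries) and estimated counts of batch 2 under Ensembl IDs (57010 entries), of which 19.6% of the nonzero values are not whole and were rounded. Tools listed in the submitters' processing notes are featureCounts 1.5.0-p3, DESeq2, StringTie 1.3.3b, fastp and HISAT2 2.0.5, and the builds GRCm39 and mm39. Which of them made which table, and the strand setting, are not given in these sources. The tables were joined on 35560 genes, 22146 by ID pairs and 13414 by symbol. Entries of batch 1 without a name held 0.16% to 0.388% of counts and were left out. No pair among 23 compared looked like a duplicate library.

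In R 4.3.3, edgeR 4.0.16 fitted group and batch to 14623 genes (TMM factors, filterByExpr with a minimum count of 10, robust quasi-likelihood fit, 14 residual degrees of freedom, Benjamini-Hochberg adjustment over all genes). CPM use TMM factors, log2 CPM a prior count of 2, and each SE is the absolute log2 fold change divided by the square root of F. TPM and GC content used GENCODE M21 transcripts, which 99.8% of tested genes had. The members and lists were chosen with earlier results of these data known. In each list the 2 most abundant genes tested are named, and for each member the 3 genes nearest in log2 CPM, except 1 gene that is not reported here; list genes named because they passed, and the comparison of ranges within batches, were chosen after the values were seen. DESeq2 1.42.0 and the other alternatives are in the closing section. The procedure was tested on simulated data.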

Additional observations from a re-analysis of the deposited data

Results flagged for a closer look

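Each gene's CPM in each group was checked for a single library whose gap to its nearest neighbour took up an unusual share of the group's range (Dixon's test at the 95% level, for which 0.625 is the critical share with 6 libraries). Chance would flag about 1 in 20 groups if the genes were independent and each group came from 1 batch, and 6 of 27 were flagged. Each group spans both batches and members are correlated, so that rate does not apply here. In ISO+100 nm PS the library was replicate 6 each time, the only batch 2 library of its group: it was highest for Eef1g (366 CPM against 237 to 271 CPM, a share of 0.693), and lowest for Tpt1 (674 CPM against 1192 to 1644 CPM, 0.639) and Npm1 (47.7 CPM against 78.7 to 95.6 CPM, 0.72). In ISO+1 µm PS it was replicate 5, also of batch 2, lowest for Eef1a1 (1007 CPM against 1468 to 1832 CPM, 0.629) and Snhg8 (1.61 CPM against 3.79 to 5.07 CPM, 0.742). In ISO it was replicate 2, highest for Tpt1 (7150 CPM against 1175 to 2055 CPM, 0.691).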

How the results depend on the processing

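Against ISO no member's fold change turned its sign among those called. For 100 nm PS, the genes and members called were 717 and 1 without a filter, 2603 and 4 with DESeq2, 2644 and 4 at an adjusted p under 0.1, 606 and 0 without ISO replicates 1 and 2, and 7 and 0 in batch 2 alone. Batch 1 alone called 0 members. For 1 µm PS they were 481 genes without a filter, 2348 and 3 with DESeq2, 2328 and 3 at an adjusted p under 0.1, 598 and 0 in batch 1 alone and 11 and 0 in batch 2 alone; 2 members were called with RLE factors and 0 without ISO replicates 1 and 2. At both sizes 0 genes and 0 members were called without the batch term and after correction for GC content. Leaving out 1 library gave 170 (without ISO+100 nm PS replicate 6) to 2283 genes (without ISO replicate 3) and 0 to 4 members at 100 nm, and 265 (without ISO+1 µm PS replicate 1) to 2334 genes (without ISO replicate 3) and 0 to 5 members at 1 µm. Between the sizes batch 2 alone called 1 gene, and small uncalled differences changed sign. Tpt1 was at -0.12 without the batch term and in batch 2 alone, -0.027 without ISO replicates 1 and 2 and -0.0066 with pseudogene copies; Npm1 at -0.028 without the batch term; Gas5 at 0.037 in batch 1 alone and 0.0016 after GC correction; and Eef1b2 at -0.0024 without ISO replicates 1 and 2. With 1 library left out these ranged from -0.037 to 0.063 for Tpt1, -0.083 to 0.076 for Npm1, -0.14 to 0.084 for Gas5, -0.026 to 0.057 for Eef1b2, -0.0047 to 0.046 for Eef1g and -0.22 to 0.077 for Snhg8. The cause was not tested. The difference in Eef1a1 to Eef1a2 ratio between sizes ran from -0.57 to -0.20 with 1 library left out, in tests chosen after seeing the data.

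Replicate numbers did not pair the libraries: 3 of 18 correlations between same-numbered libraries were over 0.1, and 0 of 18 libraries correlated best with its own number. With the replicate number as a block 0 genes and 0 members were called against ISO, and Tpt1 (-0.071) and Eef1b2 (-0.033) changed sign between the sizes. Snhg8 had the fewest counts of the members in PS libraries, 30 to 144. Its SE between the sizes was 0.69 with all libraries and 0.28 without ISO replicates 1 and 2.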
